A study of Mus musculus with 9 samples.

Results

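The genes described here are 6 adhesion molecules through which the vessel lining catches white blood cells: the selectins Sele and Selp, the immunoglobulin-family ligands Icam1, Icam2 and Vcam1, and the mucosal addressin Madcam1. They were chosen by symbol from the array's annotation, and each of the 6 lies on 1 transcript cluster, the array's unit for a gene or transcript, among 30142 named genes. The series holds 9 whole-transcriptome mouse arrays, 5 from ACDiEKO mice and 4 from control mice, each with RNA from 1 thoracic aorta. ACDiEKO mice carried Cdh5-CreERT2 and loxP-flanked (f/f) alleles of Mef2a, Mef2c and Mef2d, which encode transcription factors of the MEF2 family. Controls were Cre-negative littermates with the same 3 f/f genes, and both groups received 5 daily tamoxifen injections at 10 weeks of age. All mice were female. Aortas were taken 7 days after tamoxifen was begun according to the series text but 14 days after according to the sample protocols, so the interval is not settled here. Cdh5-CreERT2 is expressed in endothelial cells and is switched on by tamoxifen. No Cre-positive mouse without floxed genes was included, so an effect of the recombinase cannot be told apart from loss of MEF2. Values are log2 numbers as deposited, and differences are ACDiEKO minus control in log2 units of those values.

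E-selectin (Sele) and P-selectin (Selp) are lectins on the endothelial surface that bind sugars on white blood cells and let them roll along the wall. P-selectin protein is stored ready-made in endothelial granules, and E-selectin is made on demand after inflammatory cytokines act on the cell. ICAM-1, ICAM-2, VCAM-1 and MAdCAM-1 are bound by leukocyte integrins, which turn rolling into firm arrest before the cells cross the vessel wall.

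Arrays of ACDiEKO replicates 1 and 2 gave almost the same result. They differed by a robust SD of 0.0707 log2 units, where the remaining 15 same-group array pairs gave 0.268 to 0.401. They were averaged and counted as 1 sample, which left 4 ACDiEKO samples and 4 control samples. RNA had been flushed from the lumen with lysis reagent, and all 12 endothelial markers on the list passed the filter on dim genes given below. So did 12 of 14 smooth muscle and 10 of 12 leukocyte markers, so passing the filter does not tell these cells apart. Pecam1 lay between 17.07 and 17.35 in ACDiEKO and between 17.51 and 17.67 in control samples, and Cdh5 lay between 15.62 and 16.06 in ACDiEKO and between 15.36 and 15.82 in control samples. The markers did not move together, since 3 of the 12 rose and 3 fell. Emcn, a sialomucin, was 14.50 to 14.91 in ACDiEKO and 10.30 to 12.69 in control, and Eng and Kdr also rose (by 1.53 and 0.96). Cldn5, a tight junction protein, was 11.93 to 13.76 in ACDiEKO and 15.40 to 16.97 in control, Tek, the angiopoietin receptor, was 12.75 to 14.21 in ACDiEKO and 15.16 to 15.84 in control, and Pecam1 was the other marker that fell. Emcn, Eng, Kdr, Cldn5 and Tek were chosen after their values were seen. Of 5 lymphatic endothelial markers in the table, 3 passed the filter, and 0 of these passed limma (1 at an unadjusted p under 0.05). Prox1, a lymphatic factor, did not pass the filter, at 5.11 to 5.30 in ACDiEKO and 4.99 to 5.24 in control. The arrays did not show lower signal of the floxed genes, with differences of 0.12 for Mef2a, 0.06 for Mef2c and 0.23 for Mef2d (limma, adjusted p = 0.441, 0.66 and 0.111), and their clusters may lie outside the deleted exons, so they do not check the genotype. Titles number the animals in runs. Control replicates 1 and 2 fall in the same run as all ACDiEKO animals, and control replicates 3 and 4 in another. Nothing labels these runs as a batch. Values with the run as a term or without controls 3 and 4 are given for the tested adhesion genes. For the 7 lists of related genes they are given as counts with the genes that passed. Genes entered the test if 4 or more samples exceeded 6.17, the table's median value, and 16361 did. Of these, 16.3% passed limma with Benjamini-Hochberg adjustment at 0.05 (8.91% higher and 7.37% lower in ACDiEKO).

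Of the 6 adhesion genes, 5 were tested: Sele and Selp rose, Icam2 fell, and Icam1 and Vcam1 did not pass. Madcam1 lay below the filter value. The 3 calls are a description of genes picked with earlier results of these data known. RNA was read in bulk, so more cells of a type and more RNA per cell cannot be told apart.

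**Figure D1:**
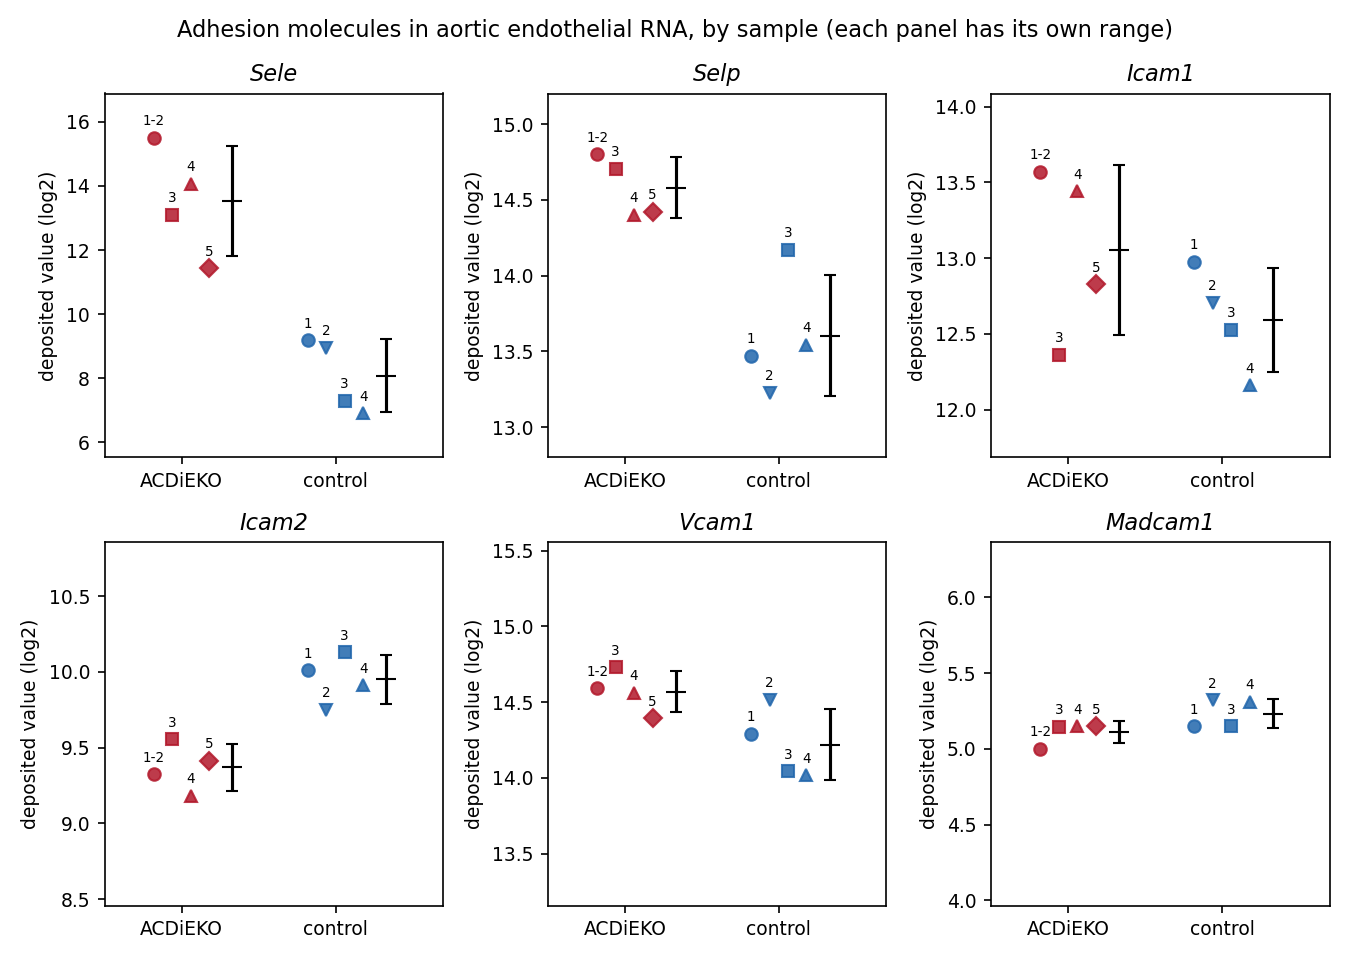
Deposited log2 values of the 6 adhesion genes (y axis, each panel with its own range) in 4 ACDiEKO samples (red, left) and 4 control samples (blue, right), with replicate numbers, where 1-2 is the mean of the near-identical arrays. Black bars show the mean ± SD (n = 4 each). Sele, Selp and Icam2 have no overlap between groups, and Sele spreads over more than 4 log2 units among ACDiEKO samples, from 11.43 to 15.51.

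Sele, which encodes E-selectin, was 15.51 in the averaged sample of ACDiEKO replicates 1 and 2, 13.10 in replicate 3, 14.07 in replicate 4 and 11.43 in replicate 5, against 9.18, 8.95, 7.29 and 6.91 in control replicates 1 to 4. All ACDiEKO samples lay above every control sample, and the lowest of them, replicate 5, still exceeded the highest control by more than 2 log2 units. The means were 13.53 ± 1.71 in ACDiEKO and 8.08 ± 1.15 in control (SD, n = 4 each), a difference of 5.44 with SE 0.89 and a 95% interval from 3.40 to 7.49 (limma, adjusted p = 0.00607). Of the tested genes, 1 had a larger rise. Sele was also among the most variable genes within groups, with a pooled SD of 1.46 that lay at the 99.8th percentile of tested genes. Controls of the 2 animal-number runs differed, at 9.18 and 8.95 in the run shared with ACDiEKO and at 7.29 and 6.91 in the other. With the run as a term in the model the difference was 4.47 (limma, adjusted p = 0.0326), and without the 2 controls of the other run it was again 4.47 and did not pass (adjusted p = 0.066).

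Selp, which encodes P-selectin, was 14.80 in the averaged ACDiEKO sample, 14.71 in replicate 3, 14.40 in replicate 4 and 14.42 in replicate 5, against 13.47, 13.23, 14.17 and 13.54 in control replicates 1 to 4. ACDiEKO samples again all lay above control samples, although the gap between the lowest ACDiEKO sample and control replicate 3 was small. The means were 14.58 ± 0.20 in ACDiEKO and 13.60 ± 0.40 in control (SD, n = 4 each), a rise of 0.98 with SE 0.20 and a 95% interval from 0.52 to 1.44 (limma, adjusted p = 0.0142). In contrast to Sele, the difference was larger, 1.23, when the run was a term (adjusted p = 0.0142) or the 2 controls of the other run were left out (adjusted p = 0.0184). Platelets also carry P-selectin, and none of 4 tested platelet markers passed the test (limma; 1 of 4 at an unadjusted p under 0.05). The mean over 7 platelet markers was 6.66 to 7.30 in ACDiEKO and 6.69 to 6.91 in control. Pf4, a platelet chemokine, was 7.98 to 11.52 in ACDiEKO and 7.74 to 9.08 in control, and Itga2b, the platelet integrin chain, lay between 6.64 and 6.86 in ACDiEKO and between 6.52 and 6.64 in control. The part of platelets in the rise of Selp was not tested.

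**Figure D2:**
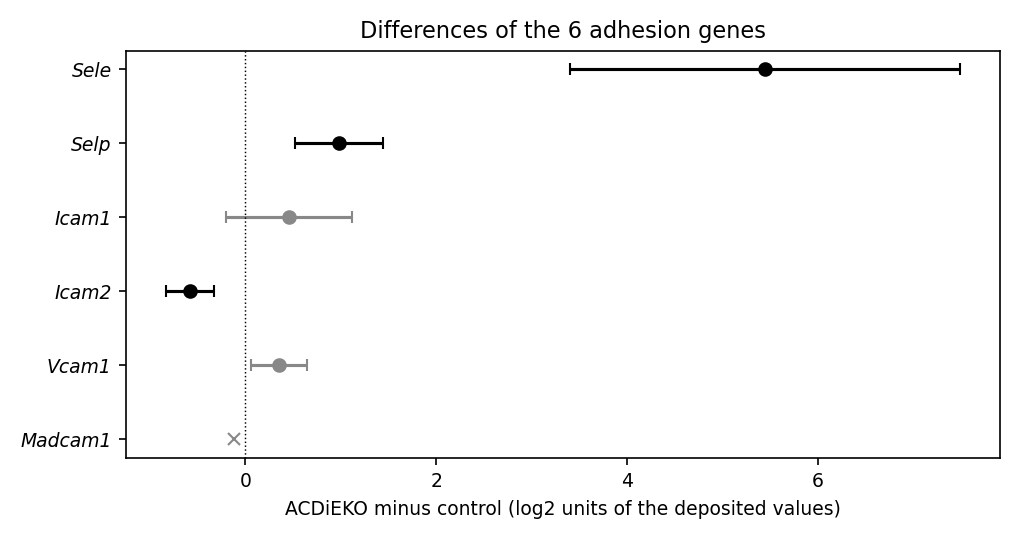
Difference between ACDiEKO and control in log2 units of the deposited values (x axis) for each adhesion gene (y axis), with 95% intervals from limma for the 5 tested genes. Black points passed adjusted p 0.05 (Sele 5.44, Selp 0.98, Icam2 -0.58), grey points did not, and the cross marks Madcam1, which lay below the filter.

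The change of Sele was larger than that of Selp, Icam1, Icam2 and Vcam1 within the same samples. For each sample the value of another member was subtracted from that of Sele, and the group means of this difference were compared with an exact two-sided permutation test over all 70 splits of 8 samples. Sele changed by 4.47 more than Selp, by 4.99 more than Icam1, by 6.03 more than Icam2, by 5.09 more than Vcam1 and by 5.57 more than Madcam1, with ACDiEKO and control samples separated in each of the 5 comparisons. Madcam1 lay below the filter in all samples, so that comparison restates the change of Sele alone. Each exact permutation test gave p = 0.0286, the smallest value these 8 samples allow, and 0.0286 after Benjamini-Hochberg adjustment over the 5 pairs. Sele was compared with the others with earlier results of these data known. All 5 differences hold the values of Sele, so they largely restate its separation and are no separate support. The excess over Selp lost the threshold without control replicate 3 (4.01) or control replicate 4 (4.10), with p = 0.0571 after adjustment in both exact tests, and without both controls of the other run (3.23, p = 0.133).

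Sele and Selp lie close together on chromosome 1, while Icam1 lies on chromosome 9. RefSeq promoter windows (GRCm38.p6, 250 bases before to 50 after an annotated start) were available for 4 of the 6 members, Sele, Selp, Icam1 and Madcam1. The windows of the 2 selectins that rose and of Icam1, the ligand that did not pass, are shown 5′ to 3′ on the plus strand, with capitals marking the motif matches described next. They span chr1:164047984-164048283 for Sele, chr1:164115014-164115313 for Selp and chr9:21015690-21015989 for Icam1.
Sele: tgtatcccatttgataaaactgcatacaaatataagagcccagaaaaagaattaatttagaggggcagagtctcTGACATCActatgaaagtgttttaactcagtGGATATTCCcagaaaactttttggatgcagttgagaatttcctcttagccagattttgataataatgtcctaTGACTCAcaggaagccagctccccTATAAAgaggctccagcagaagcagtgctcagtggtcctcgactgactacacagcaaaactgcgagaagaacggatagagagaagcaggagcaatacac
Selp: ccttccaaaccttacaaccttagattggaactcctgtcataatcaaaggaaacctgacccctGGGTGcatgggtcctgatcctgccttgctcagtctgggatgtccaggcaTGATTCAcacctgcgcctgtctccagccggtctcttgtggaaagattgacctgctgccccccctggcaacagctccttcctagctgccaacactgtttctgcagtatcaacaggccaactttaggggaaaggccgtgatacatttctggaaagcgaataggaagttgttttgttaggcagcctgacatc
Icam1: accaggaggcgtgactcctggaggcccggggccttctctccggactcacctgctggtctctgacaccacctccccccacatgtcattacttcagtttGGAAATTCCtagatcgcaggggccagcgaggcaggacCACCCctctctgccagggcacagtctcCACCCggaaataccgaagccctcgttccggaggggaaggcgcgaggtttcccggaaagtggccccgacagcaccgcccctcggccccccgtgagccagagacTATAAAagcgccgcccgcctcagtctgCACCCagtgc
Motifs were searched on both strands. The NF-kB and MEF2 consensus sequences, searched by their standard degenerate letters, had no match in these 3 windows, and 4.51% and 3.19% of all 32851 windows held one. A looser NF-kB-like string, GGANNTTCC (4.26% of windows), occurred in Sele with its first base at -145 and in Icam1 at -153, but not in Selp. The window of Madcam1, which lay below the filter, was the 1 searched window of a member that held the NF-kB consensus, with matches at -83 and -70, and the looser string overlapped the match at -70. TGACNTCA, an ATF-type element (8.83% of windows), matched once in Sele at -176, and TGANTCA, the AP-1 string (7.81%), matched in Sele at -73 and in Selp at -139. The KLF-type string CACCC, which 57.5% of windows hold, was present in Selp and at 3 positions in Icam1 and had no match in Sele. TATAAA (13.6%) matched in Sele at -49 and in Icam1 at 14. The matched strings did not overlap each other in these 3 windows, and a match or its lack describes letters only. The looser string was picked after these windows had been read.

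Icam1, the cytokine-inducible ligand of the leukocyte integrin LFA-1, was 13.57 in the averaged ACDiEKO sample, 12.36 in replicate 3, 13.44 in replicate 4 and 12.83 in replicate 5, against 12.98, 12.70, 12.53 and 12.16 in control replicates 1 to 4. The groups overlapped, since ACDiEKO replicate 3 lay below 3 of the 4 controls. The difference was 0.46 with SE 0.29 and a 95% interval from -0.20 to 1.12 (limma, adjusted p = 0.308), so with 4 samples per group both no difference and a rise of up to 1.12 lie within its interval. In the model with a term for the run it was 0.21 (adjusted p = 0.737).

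Icam2, a ligand of the same integrin that resting endothelium carries at its junctions and surface, was 9.33 in the averaged ACDiEKO sample, 9.55 in replicate 3, 9.18 in replicate 4 and 9.41 in replicate 5, against 10.01, 9.75, 10.13 and 9.91 in control replicates 1 to 4. Every ACDiEKO sample lay below every control sample. The means were 9.37 ± 0.16 in ACDiEKO and 9.95 ± 0.16 in control (SD, n = 4 each), a fall with a difference of -0.58, SE 0.11 and a 95% interval from -0.83 to -0.33 (limma, adjusted p = 0.0104). The call ended in the model with a term for the run (-0.51, adjusted p = 0.0572) and without the 2 controls of the other run (-0.51, adjusted p = 0.08).

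Vcam1, the ligand of the integrin VLA-4, was 14.59 in the averaged ACDiEKO sample, 14.73 in replicate 3, 14.56 in replicate 4 and 14.40 in replicate 5, against 14.29, 14.52, 14.04 and 14.02 in control replicates 1 to 4. The groups overlapped only through control replicate 2, which exceeded ACDiEKO replicate 5. The difference was 0.35 with SE 0.13 and a 95% interval from 0.06 to 0.65, and it did not pass (limma, adjusted p = 0.1). Without control replicate 2 it was 0.45 and passed (limma, adjusted p = 0.0384). Without the 2 controls of the other run its difference was 0.17, the lowest over the alternatives, and it did not pass.

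Madcam1, the addressin of gut and mucosal venules, lay at 5.00 to 5.15 in ACDiEKO samples and at 5.15 to 5.32 in control samples, below the filter value in all 8. In a fit of all 30142 genes with no filter it differed by -0.12 (limma, adjusted p = 0.287), and 6.54% of genes passed in that fit. Values this low do not show whether the transcript was present. Madcam1 did not separate the groups, whereas Sele, Selp and Icam2 did so without overlap, as did 23.0% of all tested genes.

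Sele and Icam1 ranked the control samples in the same order, with replicate 1 highest and replicate 4 lowest. In both genes control replicates 1 and 2 lay above control replicates 3 and 4, so this order also follows the runs of animal numbers. The deviations used next did not remove the run, so the correlations may in part restate it. As a description over 8 samples that share their arrays, deviations from group means correlated at r = 0.76 between Sele and Icam1, at 0.62 between Sele and Vcam1, and at -0.08 between Sele and Selp. Selp followed Icam2 (r = 0.70). Of 11601 tested genes with a name, after gene models and small RNAs were left out, the gene with the pattern of deviations most like Sele was Gem, a small GTP-binding protein (r = 0.99), followed by Syncrip (0.98), Zfp451 (0.96), Irf2bpl (0.95) and Cdc7 (0.95). Gem was 11.91, 10.03, 11.01 and 8.92 in the averaged sample and replicates 3, 4 and 5 of ACDiEKO, against 8.42, 8.26, 7.35 and 7.12 in control replicates 1 to 4. It rose by 2.68 (limma, adjusted p = 0.0234). The genes most like Selp were Spcs3 (r = 0.99), Phlpp2 (0.98), Dhx57 (0.98), Lama3 (0.97) and Emc10 (0.97), none of which passed the test (adjusted p = 0.216, 0.442, 0.0562, 0.148 and 0.352). With 8 samples and this many genes, high correlations arise in numbers, and these are given as values only.

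**Figure D3:**
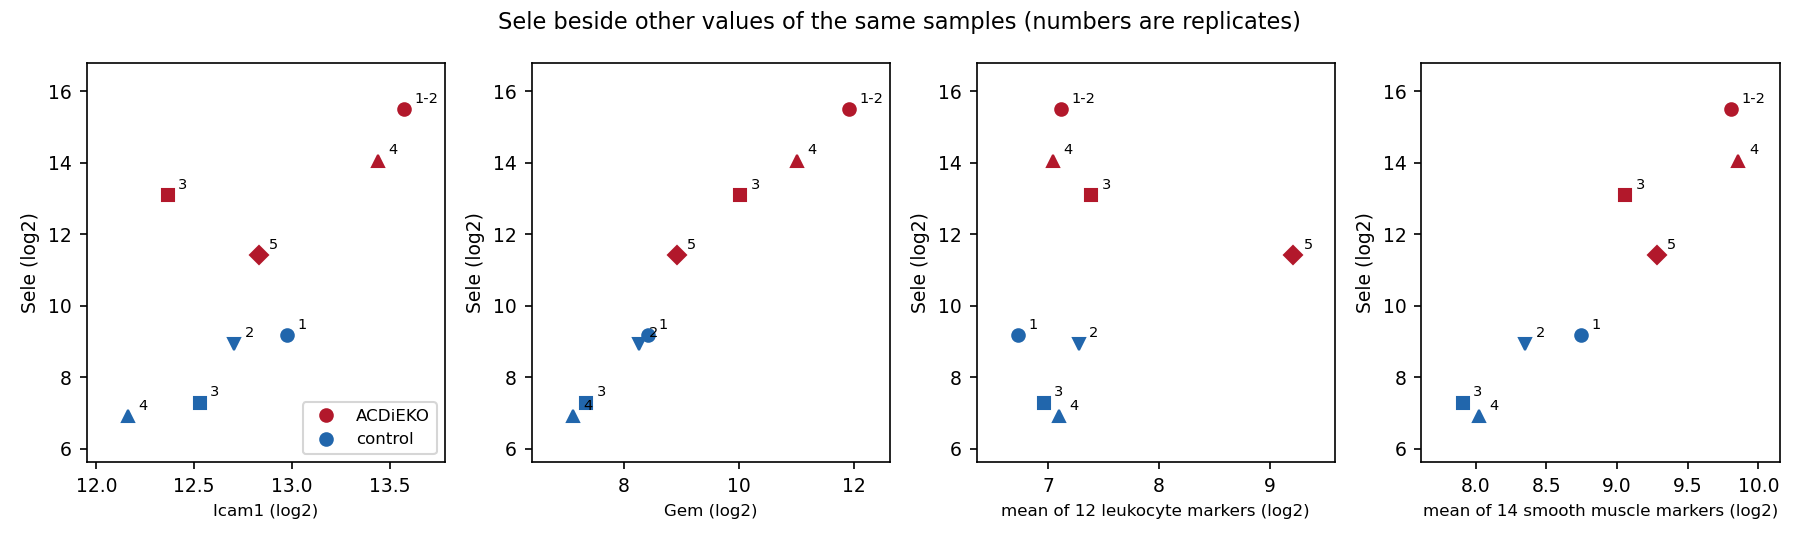
Sele (y axis, deposited log2 value) against Icam1, Gem, the mean of 12 leukocyte markers and the mean of 14 smooth muscle markers (x axes, log2) in 4 ACDiEKO (red) and 4 control samples (blue), with replicate numbers, where 1-2 is the averaged sample. ACDiEKO replicate 5 has the lowest Sele of its group (11.43) and the highest leukocyte marker mean (9.21), and all ACDiEKO samples have higher smooth muscle marker means than all controls.

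The smooth muscle marker mean separated the groups, while the leukocyte, platelet and macrophage means overlapped between them. The mean of 14 smooth muscle markers was 9.06 to 9.86 in ACDiEKO and 7.91 to 8.75 in control, and 8 of 12 tested markers rose and none fell. Acta2 was 16.97 to 17.92 in ACDiEKO and 13.14 to 16.11 in control, whereas Myh11 was 6.79 to 7.68 in ACDiEKO and 7.29 to 7.48 in control. Across 8 samples, deviations of Sele correlated at r = 0.77 with the smooth muscle mean, and in the opposite direction with the leukocyte (-0.72), platelet (-0.76) and macrophage (-0.77) means. Selp followed the endothelial mean (0.75). With the smooth muscle marker mean as a covariate, limma called none of the 16361 genes and none of the 6 members. At an unadjusted p under 0.05 in limma there were 1396 genes and 2 members. The difference of Sele in that fit was 1.87 (limma, adjusted p = 0.757). The groups do not overlap in that mean, so genotype and smooth muscle signal cannot be told apart in this fit. Of the leukocyte markers, 0 of 10 tested passed (1 at an unadjusted p under 0.05 in limma), and their mean was 7.05 to 9.21 in ACDiEKO and 6.73 to 7.28 in control. ACDiEKO replicate 5 was highest in it and in Ptprc (9.86, where the other 4 ACDiEKO arrays had 6.90 to 7.62), and had the lowest Sele, and without it Sele differed by 6.14 (adjusted p = 0.00352). The part of these cells in the differences of the adhesion genes was not tested.

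The remaining genes of the adhesion pathway were read in 7 lists that together held 116 genes, of which 83 were tested. Of these, 13 rose and 15 fell, or 33.7%, against 16.3% of all tested genes. The lists were chosen with earlier results of these data known, so these shares only describe them. Of the 12 endothelial markers 3 also rose and 3 fell, so the shares show nothing particular to adhesion genes. The shares lay closer together when the runs of animal numbers were taken into account. With the run as a term 11 of the 83 passed, or 13.3%, against 10.3% of all tested genes, and without the 2 controls of the other run 7 passed, or 8.43%, against 6.91%. These 7 were L1cam, Nfkbia, Podxl, Msn, Il4ra, Cxcl16 and Il6st (limma, adjusted p = 0.017 to 0.0412), and with the run as a term Tnfaip2, Tnfrsf1a and 2 genes outside the 28 passed as well. The other 19 of the 28 calls described next ended in both settings, Mcam among them (2.13, adjusted p = 0.0551 and 0.094). The median difference over the lists was -0.09, against -0.03 over all tested genes.

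**Figure D4:**
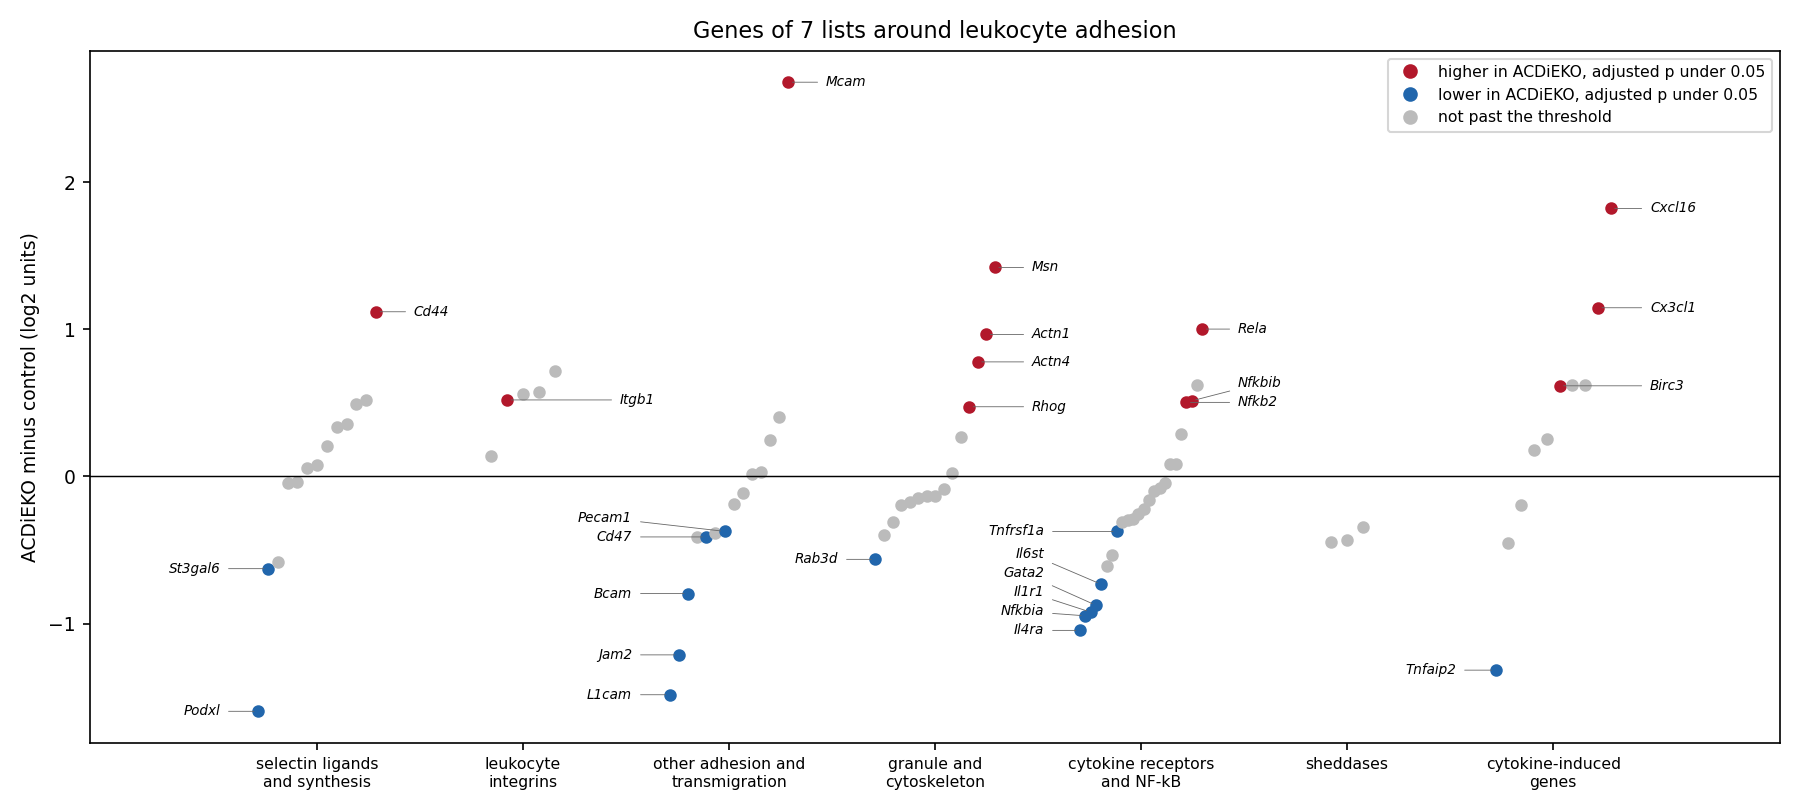
Differences between ACDiEKO and control (y axis, log2 units of the deposited values) for the 83 tested genes of 7 lists around leukocyte adhesion (x axis), each point a gene, with Tnfaip3 shown in 2 lists. Red points rose and blue points fell at adjusted p 0.05 in limma, and grey points did not pass.

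Carriers of selectin ligands and the enzymes that build them had 1 rise and 2 falls among 13 tested genes (median 0.08). This was 23.1%, against 16.3% of all tested genes. Podxl, a sialomucin of the endothelial surface, was 11.78 to 12.39 in ACDiEKO and 13.13 to 14.06 in control and had a difference of -1.60, a fall (limma, adjusted p = 0.0024). St3gal6, a sialyltransferase that acts on selectin ligands, fell by 0.63 (9.20 ± 0.18 in ACDiEKO and 9.83 ± 0.19 in control, adjusted p = 0.0125). Cd44, a hyaluronan receptor that also carries E-selectin ligands on white blood cells, rose by 1.12 (7.41 to 8.46 in ACDiEKO and 6.72 to 6.84 in control, adjusted p = 0.0209). This rise lost the threshold without control replicate 3, control replicate 4 or ACDiEKO replicate 4 (adjusted p = 0.0546 to 0.0586). Selplg, which encodes the main leukocyte ligand of P-selectin, was chosen after its value was seen and differed by 0.49 (adjusted p = 0.335).

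Among leukocyte integrins, 1 of 5 tested genes passed (median 0.56), or 20%, against 16.3% of all tested genes. Itgb1, the beta chain of VLA-4 that most cell types share, was 14.13 to 14.61 in ACDiEKO and 13.71 to 14.18 in control, overlapped between groups and rose by 0.52 (limma, adjusted p = 0.047). Its call ended when any of control replicates 1, 2 or 4, the averaged ACDiEKO sample, or ACDiEKO replicates 3 or 4 was left out (adjusted p = 0.0686 to 0.121). Itga4, its partner in VLA-4, differed by 0.58 and Itgb2, the beta chain of LFA-1, by 0.72 (adjusted p = 0.286 and 0.444), with ACDiEKO replicate 5 highest in both (8.28 and 9.93).

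Other adhesion molecules and genes of transmigration rose in 1 and fell in 5 of 14 tested cases (42.9%, against 16.3% of all tested genes). Jam2 made the sixth change beside the 5 with the smallest p. Mcam, a homophilic adhesion molecule also expressed by pericytes and smooth muscle, was 13.12 to 14.41 in ACDiEKO and 10.52 to 12.69 in control and rose by 2.68 (limma, adjusted p = 0.0102), beside the higher smooth muscle marker mean given above. The neural and endothelial adhesion molecule L1cam fell by 1.48 (8.10 to 8.33 in ACDiEKO and 9.20 to 10.06 in control, adjusted p = 0.00186). Bcam, a laminin receptor, fell by 0.80 (adjusted p = 0.0159), and Cd47, which signals to phagocytes and aids neutrophil passage, fell by 0.41 (adjusted p = 0.017, and 0.0522 without ACDiEKO replicate 4). Pecam1, which guides leukocytes between endothelial cells, fell by 0.37 (adjusted p = 0.0184, and 0.0536 without the averaged ACDiEKO sample). Jam2, a junctional ligand of VLA-4, was chosen after its value was seen and fell by 1.21 (adjusted p = 0.0222), a call lost without control replicate 3, control replicate 4, the averaged ACDiEKO sample or ACDiEKO replicate 4 (adjusted p = 0.0543 to 0.0634). Icam4, the neighbour of Icam1, lay near the filter value and was not tested, at 5.80 to 6.01 in ACDiEKO and 6.09 to 6.57 in control.

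Partners inside the endothelial cell rose in 4 and fell in 1 of 15 tested cases (median -0.13), or 33.3%, against 16.3% overall. Moesin (Msn), which links ICAM-1 and VCAM-1 to actin, was 14.92 to 15.63 in ACDiEKO and 13.54 to 14.07 in control and rose by 1.42 (limma, adjusted p = 0.00218), whereas its relatives Ezr and Rdx, chosen after their values were seen, differed by -0.40 and -0.17 (adjusted p = 0.125 and 0.318). The GTPase Rhog, which acts below ICAM-1 in cup formation around leukocytes, rose by 0.47 (adjusted p = 0.0169). The alpha-actinins Actn1 and Actn4 rose by 0.96 and 0.78 (adjusted p = 0.0473 and 0.0388), and both calls ended when any of the 4 controls, the averaged ACDiEKO sample or ACDiEKO replicate 4 was left out (adjusted p = 0.0517 to 0.121). Rab3d, a GTPase of the granules that hold P-selectin, fell by 0.56 (adjusted p = 0.0155), while Vwf, their main cargo, differed by -0.19 (adjusted p = 0.292, chosen after its value was seen).

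Among cytokine receptors and NF-kB genes upstream of the adhesion molecules, 3 rose and 6 fell of 24 tested (median -0.24). This was 37.5%, against 16.3% of all tested genes. Nfkbia, the inhibitor that holds NF-kB in the cytoplasm and is itself an NF-kB target, was 11.39 to 11.88 in ACDiEKO and 12.44 to 12.71 in control and fell by 0.95 (limma, adjusted p = 0.00211). Nfkb2, a precursor subunit, rose by 0.50 (7.81 to 8.19 in ACDiEKO and 7.52 to 7.62 in control, adjusted p = 0.00984). The receptors Il6st (the shared chain of the interleukin-6 family), Tnfrsf1a (the main receptor of tumour necrosis factor) and Il4ra (the interleukin-4 receptor chain) fell by 0.73, 0.37 and 1.05 (adjusted p = 0.00707, 0.0127 and 0.026). Il4ra lost its call without control replicate 1, 2 or 3, the averaged ACDiEKO sample or ACDiEKO replicate 4 (adjusted p = 0.0609 to 0.0762). The other 4 calls, chosen after their values were seen, were rises of Rela (1.00) and Nfkbib (0.51) and falls of Il1r1 (-0.92) and Gata2 (-0.87), with adjusted p = 0.0387, 0.0461, 0.0307 and 0.0335. Each of these 4 ended without some single libraries: for Rela and Nfkbib control replicates 2, 3 and 4, the averaged ACDiEKO sample and ACDiEKO replicates 4 and 5, for Il1r1 control replicates 3 and 4, the averaged ACDiEKO sample and ACDiEKO replicates 4 and 5, and for Gata2 all 4 controls, the averaged ACDiEKO sample and ACDiEKO replicate 4 (adjusted p = 0.0525 to 0.12). Tnf, Il1b and Il1a lay below the filter.

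Genes that endothelial cells make in response to cytokines rose in 3 and fell in 1 of 10 tested cases (median 0.43). This was 40%, against 16.3% of all tested genes. The other 10 lay below the filter, among them Il6, Cxcl1 and Csf3. Cxcl16, a membrane-bound chemokine, was 12.19 to 13.25 in ACDiEKO and 10.20 to 11.24 in control and rose by 1.82 (limma, adjusted p = 0.00467). Birc3, an inhibitor of apoptosis, rose by 0.62 (adjusted p = 0.0102), and Cx3cl1, the membrane chemokine fractalkine, by 1.15 (adjusted p = 0.0467), a call lost without control replicates 1, 3 or 4, the averaged ACDiEKO sample, or ACDiEKO replicates 3 or 4 (adjusted p = 0.0706 to 0.1). Tnfaip2, a gene first found as induced by tumour necrosis factor, fell by 1.32 (7.05 to 7.61 in ACDiEKO and 7.96 to 9.06 in control, adjusted p = 0.00898). Of the sheddases that cut adhesion molecules from the surface, 0 of 3 tested passed limma (2 at an unadjusted p under 0.05), with differences of -0.34 for Adam17, -0.43 for Adam10 and -0.44 for Mmp2.

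**Figure D5:**
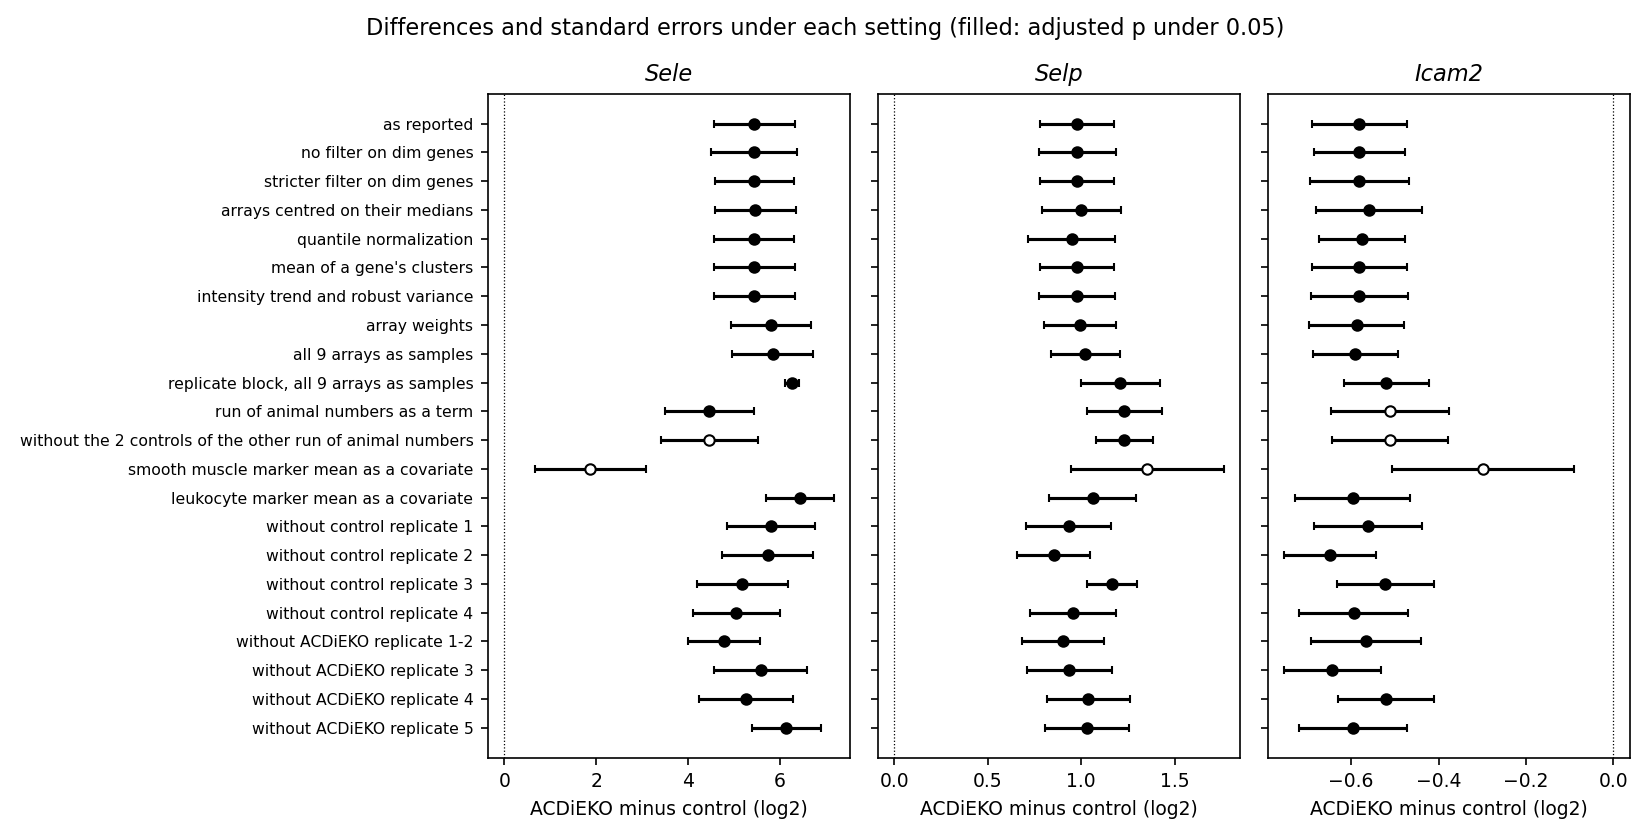
Differences of Sele, Selp and Icam2 (x axes, ACDiEKO minus control, log2) with standard errors under the reported fit and each of 21 alternatives (y axis), where filled points have adjusted p under 0.05. Sele and Icam2 lost the threshold without the 2 controls of the other run and with smooth muscle markers as a covariate, Icam2 also with the run as a term, and Selp only with that covariate.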

How the data were processed

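RMA, which the authors ran, gave the deposited log2 values (per the submitters' processing notes, with no version or parameters given). They reach 19.3, above the 16 log2 units of a 16-bit scanner, so a further scaling is not stated and no folds are given. Each RNA (5 ng) was amplified with a WT Pico protocol, per the labels' protocols. The build is not given in the sources used here.

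Of 72688 features, 6732 array controls were left out. Of the other 65956 clusters, 30604 have 1 symbol, 2146 several and 33206 none listed. Symbols were updated through gene IDs to the RefSeq table (827 changed), and the brightest cluster per symbol was kept. The test was that of limma 3.58.1 under R 4.3.3 (lmFit, then eBayes, two-sided, Benjamini-Hochberg over all tested genes). Members, lists and the rule for named genes (members, the 3 to 5 smallest p per list, genes most like Sele and Selp) were chosen with earlier results of these data known. The titles give each array its own animal number, ACDiEKO replicates 1 and 2 included. Whether these near-identical arrays come from separate animals was not tested. Title numbers do not pair samples (correlations of deviations -0.145 to 0.0414). The fit was checked on simulated data. Alternatives covered the filter, scaling, cluster choice, variance model, array weights, the averaged arrays, the run of animal numbers, marker covariates and leaving out each sample. The number of arrays limits precision. Figures used matplotlib 3.10.9.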

Additional observations from a re-analysis of the deposited data

Results flagged for a closer look

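Of 104 groups of 4 samples looked at for a single sample far from the others, 7 were picked out, and chance gives about 1 in 20. ACDiEKO replicate 5 was the highest of its group in the mean of leukocyte markers (9.21), the mean of T and B cell markers (6.85), Itgb2 (9.93) and Itga4 (8.28). It had the lowest Sele of its group, 11.43. The averaged ACDiEKO sample was lowest in Madcam1 (5.00), where all values lay below the filter. ACDiEKO replicate 3 was lowest in Birc3 (8.95), and control replicate 4 was lowest in Cd47 (14.35).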

How the results depend on the processing

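The direction and call of Sele held under 19 of 21 alternatives (differences 1.87 to 6.44 over all 21), of Selp under 20 (0.85 to 1.35) and of Icam2 under 18 (-0.65 to -0.30), while Icam1 had a difference of -0.86 with the smooth muscle covariate and did not pass under any of them. Without the 2 controls of the other run of animal numbers, 1131 genes passed, 1 member (Selp) and 7 list genes, against 2662, 3 and 28. The excess of Sele over Selp, Icam1, Icam2, Vcam1 and Madcam1 was then 3.23, 4.25, 4.98, 4.30 and 4.59 (the last restates Sele alone, as Madcam1 lay below the filter), with 6 samples, which in an exact permutation test cannot give p below 0.0667. With the run as a term the counts were 1692 genes, 2 members (Sele and Selp) and 11 list genes. With the smooth muscle marker mean as a covariate limma called 0 genes, 0 members and 0 list genes (1396, 2 and 5 at an unadjusted p under 0.05), and Actn1 (-0.16), Jam2 (0.11) and Rela (-0.058) changed sign. Without a filter 18 of 111 list genes passed, or 16.2%, against 6.54% of all 30142 genes. Leaving out 1 sample at a time gave 1683 to 2461 genes, 16 to 26 list genes and an excess of Sele over Selp of 3.88 to 5.11 (it lost the threshold without control replicate 3 or 4). The lowest counts of genes (1683) and list genes (16) came without ACDiEKO replicate 4. Without control replicate 3, control replicate 4 or the averaged ACDiEKO sample, 18 list genes passed (21.7%, against 11.1% to 12% of all tested genes). With the title numbers as a replicate block and all 9 arrays entered separately, 2352 genes and 3 members passed, with Sele at 6.27. No call of a member changed. ACDiEKO replicates 4 and 5 share their title number with no control, so they add nothing to the group difference in that fit. The value of 6.27 thus leaves out the lowest Sele of the group (11.43, replicate 5) and counts the near-identical arrays separately. Each member has 1 cluster, so no other cluster could be tried, and a mean over a gene's clusters left the members' values as they were. The causes of these changes were not tested.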
